A study of Malus domestica with 18 samples.

Results

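The 3 genes MD02G1019900, MD06G1227300 and MD08G1005500 were much higher in the skin of bagged than of unbagged apple fruit at the last of 3 stages. They are 3 of the 2856 genes in the deposited table, and all 3 are among the 1399 genes with at least 1 FPKM in at least 3 libraries. FPKM is the number of fragments mapped to a gene, scaled to gene length and library size. The genes were chosen by their large rises at DAF150 (days after flowering) in bagged over unbagged skin. Their values at DAF150 are therefore given as a description, with no test. The contrasts within DAF30 and DAF60 were not part of that rule, and the tests of the 3 genes given here are of those contrasts. These tests are not independent of all selection. The authors kept the genes of the table by setting all T libraries against all CK libraries, early ones included. Counts at DAF150 over lists, markers and all genes tested do rest on limma calls at an adjusted p of at most 0.05.

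RNA-seq was done on the fruit skin of "Golden Delicious" apple, a yellow cultivar whose skin tends to russet, that is, to form a brown corky layer. The bagged fruit (T) were enclosed at DAF20 in double-layer paper bags that let no light through, and the unbagged fruit (CK) hung on the trees without bags. Bagged and unbagged fruit were sampled at DAF30 (T1 and CK1), DAF60 (T2 and CK2) and DAF150 (T3 and CK3), and DAF150 is the ripening stage. Each of the 6 groups had 3 libraries, 18 in all, and each library held the pooled peel of 3 fruits. The study used 3 trees as replicates of each treatment, and whether the same trees served at each stage, or for both treatments, is not stated in the study. Unbagged skin was russeted and bagged skin was free of russet, so light, the other effects of a bag and the state of the skin surface cannot be told apart. In a bulk sample of peel, fewer cells of a type and less RNA per cell cannot be told apart either.

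The 3 genes belong to unrelated protein families. SRC2 proteins were first described in soybean as products of a gene that responds to cold, and they carry a C2 domain, a fold that binds membrane lipids, often together with calcium. The methyltransferase belongs by its annotation to the enzymes that move a methyl group from S-adenosylmethionine to the carboxyl group of small molecules, among them the hormones salicylic acid and indole-3-acetic acid. In plants such methyl esters are volatile or less active forms of the hormone. Prolyl endopeptidases, also called prolyl oligopeptidases, are serine peptidases that cut short peptides after proline.

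On the GDDH13 v1.1 assembly, the SRC2-like gene MD02G1019900 lies on chromosome 2 from 1422048 to 1423025 on the plus strand, a span of 978 bases. The deposited table describes it as protein SRC2-like, while its KEGG entry names it formin 2, a different kind of protein, and the description is followed here. MD06G1227300, described as a probable S-adenosylmethionine-dependent methyltransferase, lies on chromosome 6 from 35801213 to 35803959 on the plus strand. Its KEGG entries name the methyltransferases of indole-3-acetate and of salicylate. MD08G1005500, described from a pear protein as prolyl endopeptidase-like, lies on chromosome 8 from 485459 to 491151 on the minus strand, and its KEGG entry is prolyl oligopeptidase. No member overlapped another gene of the table.

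At DAF150 the prolyl endopeptidase-like gene MD08G1005500 reached the highest level of the 3 genes. Its FPKM was 232.66, 630.57 and 404.54 in the T3 libraries, against 9.30, 7.24 and 10.88 in the CK3 libraries. The mean was 423 ± 200 FPKM in T3 and 9.14 ± 1.83 FPKM in CK3 (SD, n = 3 each), a ratio of 46.2. The lowest T3 library was 21.4 times the highest CK3 library. The 3 T3 libraries held 95.2% of the FPKM of this gene summed over the 18 libraries.

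The methyltransferase gene MD06G1227300 had 20.96, 179.92 and 170.23 FPKM in the T3 libraries, against 0.74, 0.36 and 0.73 FPKM in the CK3 libraries. The means were 124 ± 89.1 FPKM in T3 and 0.61 ± 0.217 FPKM in CK3 (SD, n = 3 each). The ratio of these means, 203, rests on the 2 high T3 libraries and on very low values in CK3. T3 replicate 1 was 8.12 times lower than the lower of the other T3 libraries, yet it stood 28.3 times above the highest CK3 library.

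The SRC2-like gene MD02G1019900 had the most even T3 libraries, with 53.88, 68.85 and 56.75 FPKM, against 0.93, 1.85 and 3.14 FPKM in the CK3 libraries. The means were 59.8 ± 7.95 FPKM in T3 and 1.97 ± 1.11 FPKM in CK3 (SD, n = 3 each), a ratio of 30.3. The lowest T3 library was 17.2 times the highest CK3 library. The share of the summed FPKM found in T3 was 86.8% for this gene and 92.4% for the methyltransferase gene.

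**Figure D1:**
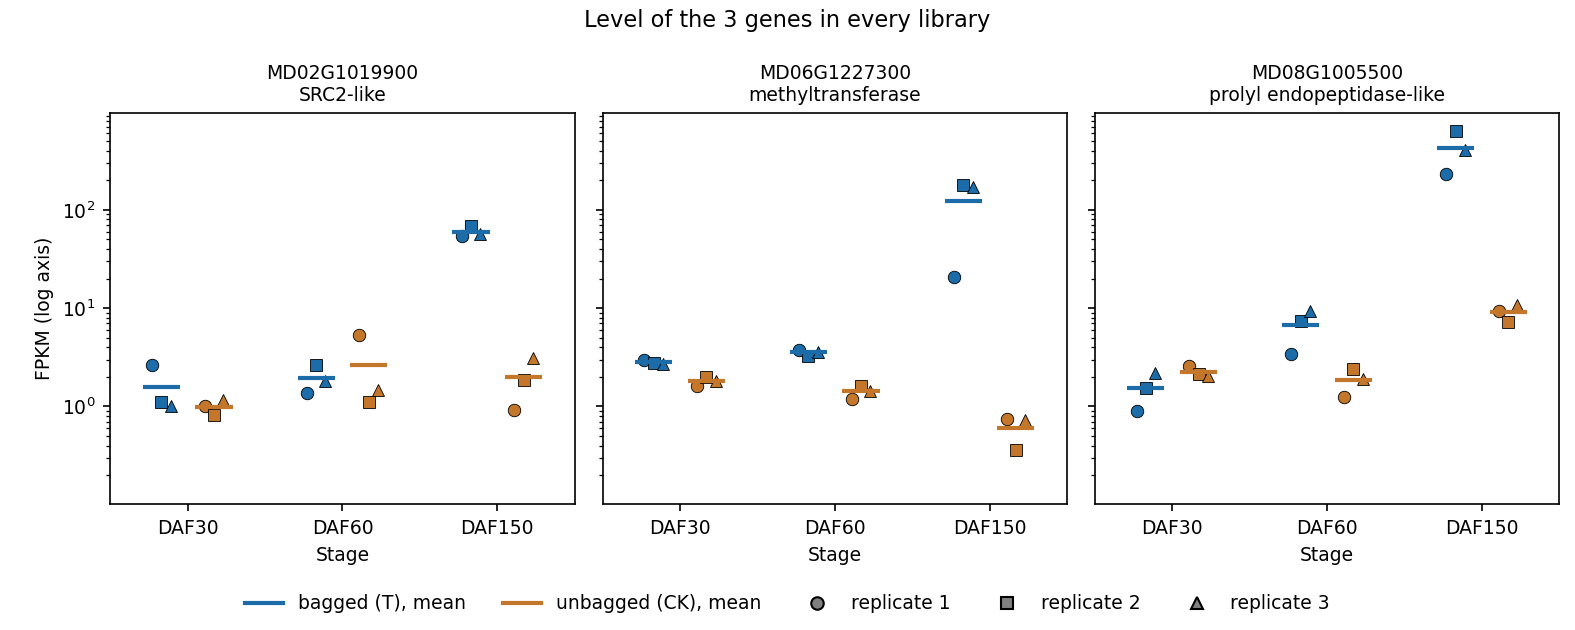
FPKM (log axis) of the 3 genes in each of the 18 libraries, by stage, with bagged libraries (T) in blue to the left of unbagged libraries (CK) in orange. Points are single libraries, with a symbol for each replicate number, and bars are group means of 3 libraries. The T3 libraries stand above all others in each panel, and T3 replicate 1 of the methyltransferase gene, at 20.96 FPKM, lies apart from the other T3 libraries.

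On the scale of log2(FPKM + 1), the difference between T3 and CK3 was 5.78 for MD06G1227300, 5.29 for MD08G1005500 and 4.42 for MD02G1019900. The genes held places 3, 6 and 8 in the order of this difference over the 1399 genes. The member lowest in this order was MD02G1019900, and the gene next below it, at place 9, was the uncharacterized MD10G1330600 with 4.30, which is no member. The other genes that stood between or next to the members were MD08G1062400 (6.08), which has no description, the zinc transporter 8-like MD09G1140300 (5.69), the zinc transporter 1-like MD05G1247200 (5.43) and the uncharacterized MD05G1118500 (4.95). The order therefore shows no step that sets the 3 genes apart from these neighbours.

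In bagged skin the difference between T3 and T2 on the same scale was 5.75 for MD08G1005500, 4.38 for MD02G1019900 and 4.27 for MD06G1227300. In unbagged skin the 3 genes took different courses over the same interval. For MD08G1005500, CK3 minus CK2 was 1.84, and the lowest CK3 library was 3.04 times the highest CK2 library. For MD06G1227300 it was -0.60, and the highest CK3 library was 0.617 times the lowest CK2 library. For MD02G1019900 it was -0.17, with overlapping libraries. These stage differences use the libraries of DAF150 and are given without a test.

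At DAF60 the prolyl endopeptidase-like gene was already higher in bagged skin. MD08G1005500 had 3.41, 7.47 and 9.26 FPKM in T2, against 1.26, 2.38 and 1.89 FPKM in CK2. All T2 libraries lay above all CK2 libraries. The difference was 1.37 on the log2(FPKM + 1) scale (SE 0.37, adjusted p = 0.00376, limma with Benjamini-Hochberg adjustment over the 1399 genes). At the same threshold, an adjusted p of at most 0.05, 9.51% of the genes tested were higher in T2 and 61.9% were lower. The sign of the difference for MD08G1005500 was thus that of the smaller of these shares.

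At DAF30 MD08G1005500 had 0.90, 1.53 and 2.19 FPKM in T1, against 2.55, 2.15 and 2.06 FPKM in CK1, and the libraries overlapped. The difference of -0.39 did not pass the test (SE 0.37, adjusted p = 0.684, limma). At DAF30 2.07% of the genes tested were higher and 12.4% were lower in T1. The change of the difference between DAF30 and DAF60 was 1.76 for MD08G1005500 (SE 0.53, adjusted p = 0.0165, limma). An upward change passed for 6.15% of the genes tested and a downward one for 37.2%. Within bagged skin, T2 minus T1 was 1.55 for this gene (SE 0.37, adjusted p = 0.00556, limma). Among all genes tested, 5.86% were higher and 21.2% lower in T2 than in T1. Within unbagged skin, CK2 minus CK1 was -0.21 for MD08G1005500 and did not pass (SE 0.37, adjusted p = 0.680, limma), while 31.3% of all genes tested were higher and 13.5% lower in CK2 than in CK1. The rise by DAF60 thus lay in the bagged libraries. With median centring and with quantile normalization the difference of this gene at DAF60 was 2.53 and 2.54, and the change was 2.66 and 2.67.

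The methyltransferase gene MD06G1227300 was low at the 2 early stages, with bagged libraries above unbagged ones at both. At DAF30 it had 2.98, 2.75 and 2.69 FPKM in T1, against 1.60, 1.99 and 1.80 FPKM in CK1. At DAF60 it had 3.76, 3.27 and 3.62 FPKM in T2, against 1.20, 1.63 and 1.45 FPKM in CK2. Of the 1399 genes, 6.43% had all T1 libraries above all CK1 libraries, 11.2% had all T2 libraries above all CK2 libraries, and 3.50% had both. MD06G1227300 was one of the 49 genes with both.

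Neither difference of MD06G1227300 passed the test that pooled the spread of all 18 libraries. The difference was 0.45 at DAF30 (SE 0.53, adjusted p = 0.806, limma) and 0.91 at DAF60 (SE 0.53, adjusted p = 0.130, limma). The SE of this gene was large because the spread was taken over all groups, T3 among them. Without T3 replicate 1 the adjusted p at DAF60 was 0.00188 with the same difference of 0.91. With the 12 libraries of DAF30 and DAF60 alone, a fit chosen after the values were seen, it was 0.00248 at DAF60 (SE 0.21) and 0.211 at DAF30 (limma). With the libraries of DAF60 alone it was 0.0149. Over the 28 alternatives run it was between 0.00154 and 0.244. With each library centred on its median the difference at DAF60 was 2.07 (adjusted p = 0.0092), and with quantile normalization it was 2.02 (adjusted p = 0.00154, limma). The call at DAF60 for this gene therefore depends on the libraries that set the spread and on the scaling. The change of the difference between DAF30 and DAF60 was 0.46 (SE 0.75, adjusted p = 0.663, limma). T2 minus T1 was 0.26 (adjusted p = 0.801) and CK2 minus CK1 was -0.21 (adjusted p = 0.783, limma), and neither passed.

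The SRC2-like gene MD02G1019900 showed no difference between bagged and unbagged skin that passed the test before DAF150. It had 2.65, 1.1 and 1.02 FPKM in T1, against 1.02, 0.81 and 1.16 FPKM in CK1, a difference of 0.32 (SE 0.39, adjusted p = 0.806, limma). It had 1.38, 2.65 and 1.81 FPKM in T2, against 5.31, 1.1 and 1.47 FPKM in CK2, a difference of -0.14 (SE 0.39, adjusted p = 0.765, limma). The libraries overlapped at both stages, and CK2 replicate 1 was 3.61 times the next CK2 library. Without that library the difference at DAF60 was 0.35 (adjusted p = 0.384), so even its sign was not settled. The change between the stages was -0.46 (adjusted p = 0.531), T2 minus T1 was 0.22 (adjusted p = 0.757) and CK2 minus CK1 was 0.68 (adjusted p = 0.163, limma), and none of these passed. Where each library was centred on its median, or quantile normalized, the difference at DAF60 was 1.02 for this gene, with adjusted p of 0.0302 and 0.0277, the lowest of the 28 alternatives run (highest 1). Such scalings shift with the table itself, in which most genes are lower in T2, and they move the median of all genes tested, -1.06 at DAF60 as deposited.

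**Figure D2:**
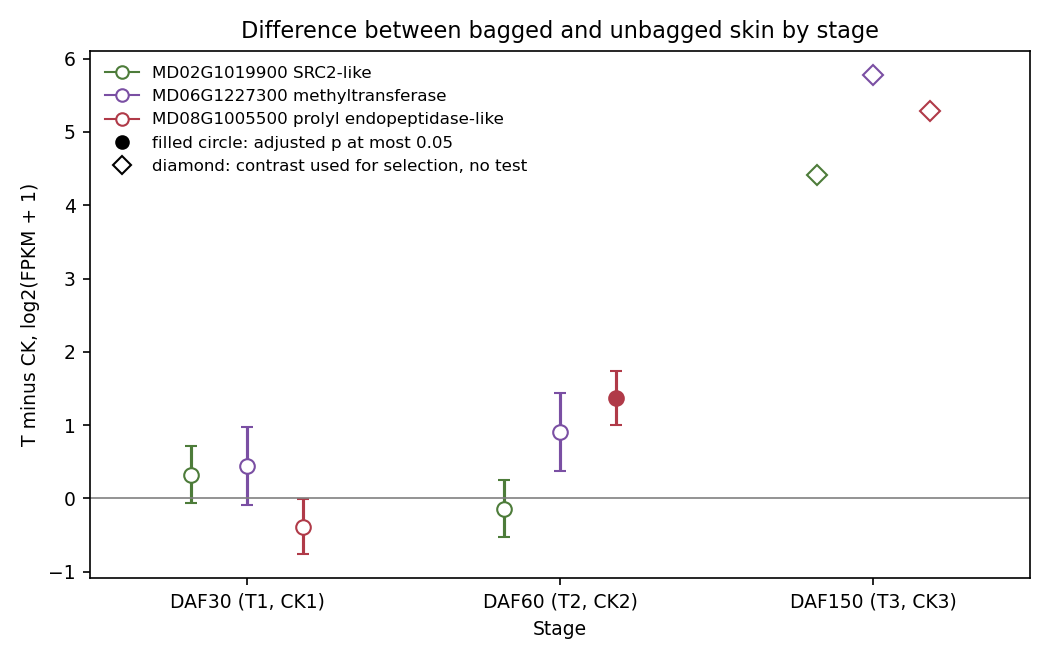
Difference between bagged and unbagged skin (T minus CK, on the log2(FPKM + 1) scale) for the 3 genes at each stage. Circles with bars are the estimate and its SE from the fit at DAF30 and DAF60, filled where the adjusted p was at most 0.05, and diamonds are the differences of means at DAF150, by which the genes were chosen. The filled circle is the prolyl endopeptidase-like gene at DAF60 (1.37), and the other 5 early differences are open.

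The order of the 6 groups differed between the genes below T3. For MD06G1227300 the mean FPKM was 124 in T3, 3.55 in T2, 2.81 in T1, 1.80 in CK1, 1.43 in CK2 and 0.61 in CK3, and neighbours in this order did not overlap except CK1 and CK2. Every bagged group of this gene thus stood above every unbagged one. For MD08G1005500 the mean FPKM was 423 in T3, 9.14 in CK3, 6.71 in T2, 2.25 in CK1, 1.84 in CK2 and 1.54 in T1. The CK3 and T2 libraries of MD08G1005500 overlapped, and so did the 3 lowest groups. For MD02G1019900 the mean FPKM was 59.8 in T3 and between 0.997 and 2.63 in the 5 other groups, each of which overlapped its neighbour. The SRC2-like gene was thus low everywhere but in T3.

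Among themselves, the 3 genes varied together over the 18 libraries. Pearson's r of log2(FPKM + 1) was 0.92 for MD02G1019900 with MD08G1005500, 0.89 for MD02G1019900 with MD06G1227300 and 0.88 for MD06G1227300 with MD08G1005500. Over the 15 libraries other than T3 the same pairs had r of 0.07, -0.12 and -0.29. Over the 12 libraries of DAF30 and DAF60 they had r of -0.03, -0.08 and 0.54. The 0.54 belongs to the methyltransferase and prolyl endopeptidase-like genes. Among 1398 genes it held place 132 for the methyltransferase gene and place 113 for the prolyl endopeptidase-like gene. The high values over 18 libraries come with T3, for which the genes were chosen.

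Each gene was also set beside the 5 other genes whose log2(FPKM + 1) was most like it over the same 18 libraries. The libraries are shared by all genes, T3 dominates the measure, and the values are a description. For the methyltransferase gene MD06G1227300, r was between 0.95 and 0.99. Its most like genes were the F-box gene MD15G1285700 (F-box proteins mark other proteins for breakdown), MD08G1062400 with no description, the zinc transporter 1-like MD05G1247200, the uncharacterized MD10G1330600 and MD07G1240700, a chloroplast iron superoxide dismutase, which removes superoxide. In all 5 of these genes T3 replicate 1 was more than 2-fold below both other T3 libraries in FPKM, as it was in MD06G1227300. These genes were picked by r over libraries that include T3, so a shared low replicate 1 was largely set by the choice. Their number is therefore not to be read against the share in all genes. MD08G1062400 had 10.51, 178.85 and 148.41 FPKM in T3 and was listed at 0 in all CK3 libraries. MD10G1330600 had 3.35, 48.09 and 42.27 FPKM in T3, against 0.09, 0 and 0.11 FPKM in CK3.

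A T3 replicate 1 so far below the others was rare in the table as a whole. On the log2(FPKM + 1) scale, 19 of the 1399 genes, 1.36%, were more than 2-fold lower there than in both other T3 libraries, and the share was 2.22% for T3 replicate 2 and 1.64% for T3 replicate 3. T3 replicate 1 correlated with the other T3 libraries at r of 0.94 and 0.93 over the genes tested, and those 2 correlated with each other at r of 0.92. The library thus did not stand apart as a whole. The zinc transporter 1-like MD05G1247200 had 61.35, 282.73 and 211.12 FPKM in T3, against 2.24, 2.14 and 3.62 FPKM in CK3, which was the same shape as MD06G1227300 at higher levels.

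For the prolyl endopeptidase-like gene MD08G1005500, r with the 5 most like genes was between 0.95 and 0.97. They were the autophagy-related 18a-like MD12G1215700, from a family needed to form autophagosomes in yeast and Arabidopsis, the two-on-two hemoglobin-3 gene MD15G1099500, MD05G1118500, the short-chain dehydrogenase gene MD12G1181900 and the MLP-like MD16G1025800. Of these, MD15G1099500 had also passed at DAF60, with 10.23, 9.01 and 10.51 FPKM in T2, against 5.61, 3.70 and 5.06 FPKM in CK2, a difference of 0.93 (SE 0.32, adjusted p = 0.0173, limma). The rest of these 5 genes did not pass at DAF60 (adjusted p between 0.344 and 0.975, limma). All 5 were picked by r over libraries that include T2 and CK2, so an early rise was partly set by the choice. Over the 12 libraries of DAF30 and DAF60, r of MD08G1005500 with MD15G1099500 was 0.81, at place 19 of 1398 genes by that measure.

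For the SRC2-like gene MD02G1019900, r with the 5 most like genes was between 0.92 and 0.95, and MD05G1118500, MD16G1025800 and MD12G1181900 were shared with the prolyl endopeptidase-like gene. The others were the potassium transporter gene MD11G1069200 and MD08G1062400. MD11G1069200 had even T3 libraries like those of the SRC2-like gene, with 6.69, 6.71 and 5.93 FPKM in T3, against 0.53, 0.61 and 0.69 FPKM in CK3. At DAF60 it had 1.57, 1.58 and 1.18 FPKM in T2, against 0.55, 0.57 and 0.57 FPKM in CK2, a difference of 0.64 (SE 0.17, adjusted p = 0.00341, limma). Whether this difference departs from that of the SRC2-like gene was not tested. The rest of these 5 genes did not pass at DAF60 (adjusted p between 0.401 and 0.975, limma).

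**Figure D3:**
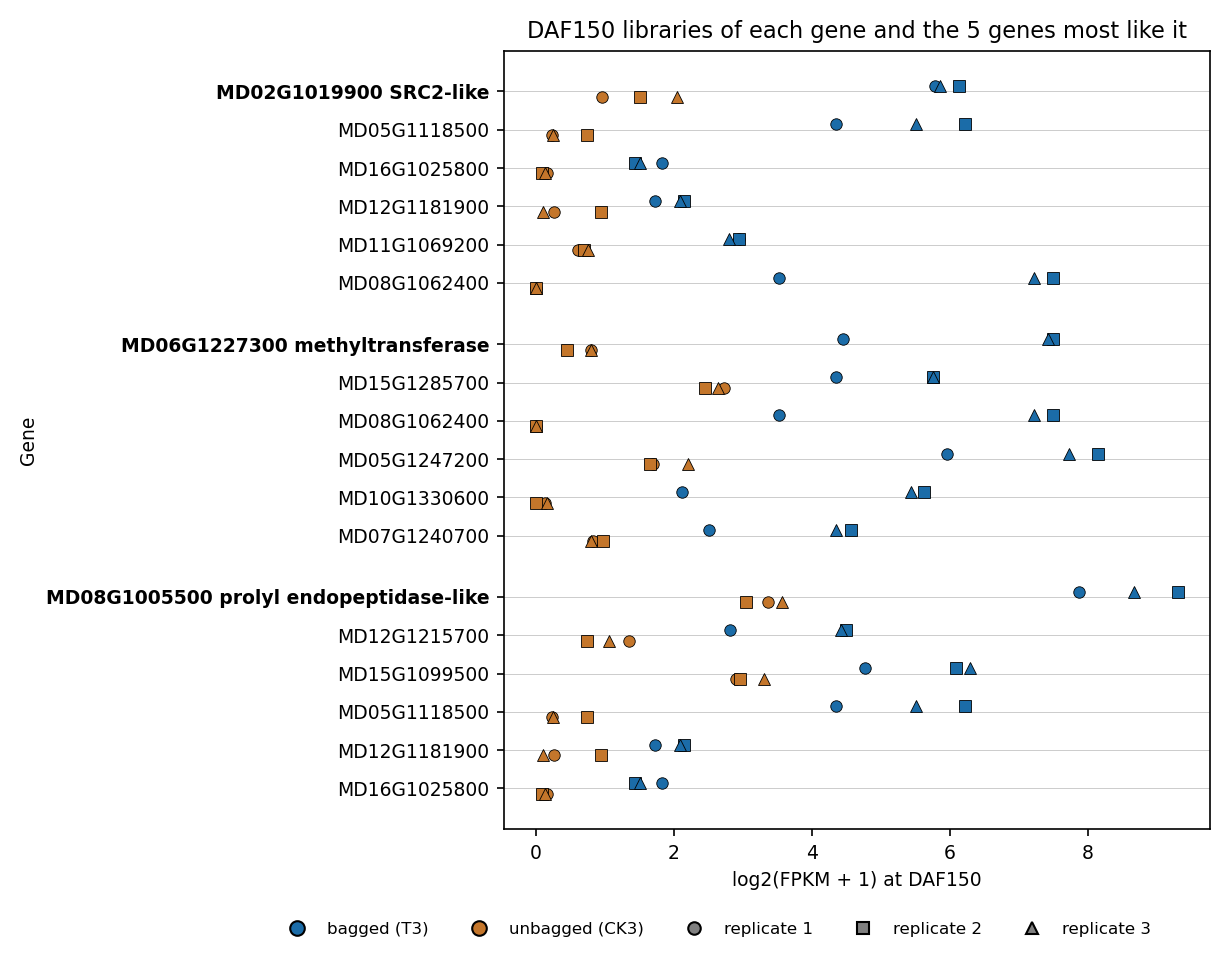
Level of each of the 3 genes (bold) and of the 5 genes most like it, as log2(FPKM + 1), in the 3 T3 libraries (blue) and the 3 CK3 libraries (orange), with a symbol for each replicate number. The T3 libraries lie right of the CK3 libraries for every gene shown. T3 replicate 1 lies left of the other T3 libraries for MD06G1227300 and all 5 genes below it, while the SRC2-like gene has 53.88, 68.85 and 56.75 FPKM in T3.

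**Figure D4:**
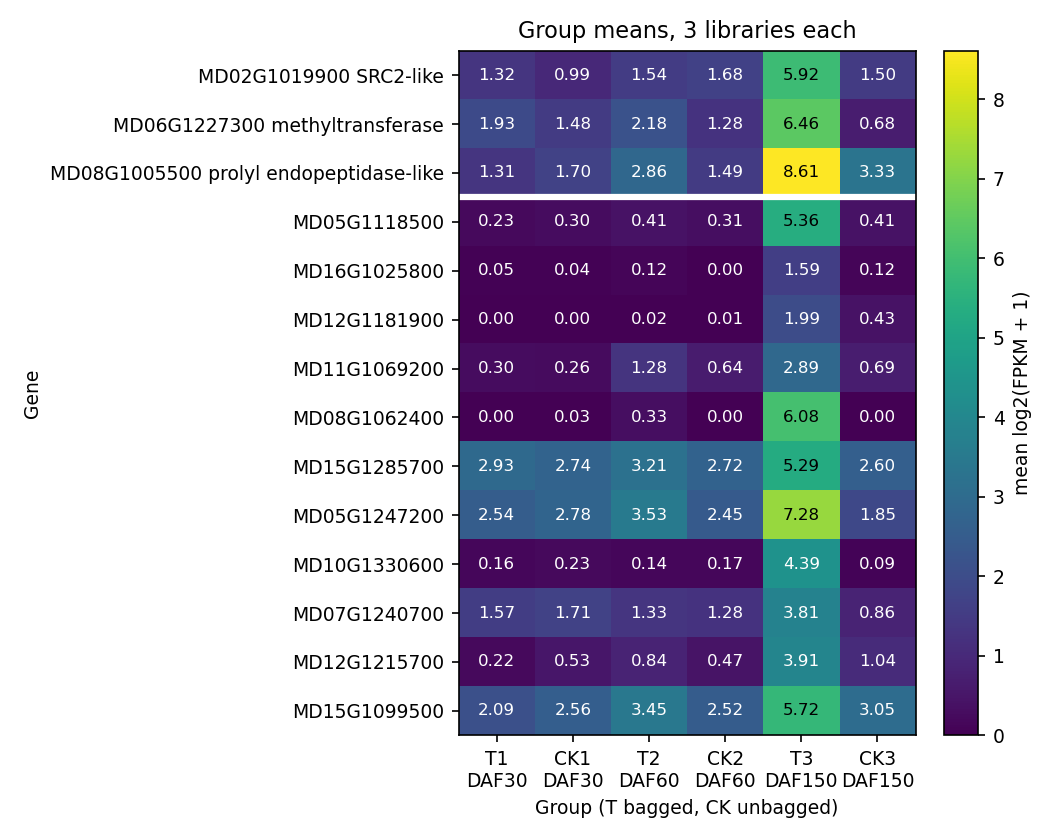
Mean of log2(FPKM + 1) in each of the 6 groups (3 libraries each) for the 3 genes, above the white line, and the 11 genes most like them, with bagged groups left of unbagged groups at each stage. Brighter cells are higher levels. T3 is the brightest column for every gene, and the prolyl endopeptidase-like gene has 2.86 in T2, against 1.49 in CK2.

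Genes of the table that share a family word with the 3 genes were compared with them. The SRC2 homolog MD01G1205900 had 10.10, 13.63 and 7.14 FPKM in T2, against 63.40, 30.07 and 52.18 FPKM in CK2, a difference of -2.11 (SE 0.34, adjusted p = 9.47e-05, limma). At DAF150 it had 5.03, 4.77 and 9.92 FPKM in T3, against 22.76, 25.65 and 29.71 FPKM in CK3. The third SRC2-like gene, MD13G1169800, stayed at or below 0.42 FPKM in all 18 libraries. Neither gene with the SRC2 name showed a rise like that of MD02G1019900.

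Of the 8 genes described as S-adenosylmethionine-dependent methyltransferases, 4 passed the filter on low values. MD13G1007200 was lower in bagged skin at DAF60, with a difference of -1.79 (SE 0.35, adjusted p = 0.000377), and so was MD14G1232400, with -1.83 (SE 0.37, adjusted p = 0.000543, limma). At DAF150 MD13G1007200 had 1.73, 0.88 and 1.48 FPKM in T3, against 6.09, 7.13 and 4.93 FPKM in CK3. A run of 3 further genes of this family, MD06G1223600, MD06G1223700 and MD06G1223800, lies on chromosome 6 between 342 and 349 kb before MD06G1227300. Their mean FPKM over the 18 libraries was between 0.02 and 0.403. Of this run only MD06G1223800 passed the filter, and its difference at DAF150 was -1.15, the opposite direction to MD06G1227300. Its mean was only 0.403 FPKM, so this direction may be tied to the group through which it passed the filter. How the authors counted reads shared by such relatives is not given in the sources used here. By contrast, the other 5 genes whose description holds the word prolyl are peptidyl-prolyl isomerases, which turn the bond before proline and cut nothing, so the table holds no other prolyl endopeptidase by name. Of these isomerases, the E-like MD16G1059400 was higher in bagged skin at DAF60, with 2.41, 3.53 and 4.21 FPKM in T2, against 1.16, 1.39 and 1.07 FPKM in CK2 (0.97, SE 0.25, adjusted p = 0.00277, limma). It had 3.09, 4.72 and 2.81 FPKM in T3, against 1.01, 1.23 and 2.32 FPKM in CK3. MD12G1101900 and MD16G1141800, both FKBP isomerases of the chloroplast, were lower in bagged skin at DAF60 (-0.94 and -1.14, adjusted p = 0.00278 and 0.00148, limma).

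Next to MD08G1005500, 3.20 kb past its higher coordinate and on the other strand, lies the rop guanine nucleotide exchange factor gene MD08G1005600, an activator of small GTPases. As MD08G1005500 is on the minus strand, its higher coordinate is its start. MD08G1005600 had 0.36, 1.66 and 1.35 FPKM in T3 and was listed at 0 in all CK3 libraries, below the filter on low values. The lysine histidine transporter gene MD08G1004100, 91.4 kb below the lower coordinate of MD08G1005500, was lower in bagged skin at DAF60 (-3.41, SE 0.42, adjusted p = 2.03e-05, limma). The nearest genes of the table to the methyltransferase gene lie 41.8 and 44.8 kb away and had means of 0.277 and 1.25 FPKM in T3, against 0.777 and 3.50 FPKM in CK3. The nearest to the SRC2-like gene lie 181 and 149 kb away. Apart from MD08G1005600 and the predicted gene BGI_novel_G000216, with means of 2.54 FPKM in T3 and 0.467 FPKM in CK3, no nearest neighbour had a higher mean in T3. BGI_novel_G000216 was below the filter on low values. Its libraries overlapped, with 0.63 to 4.45 FPKM in T3 and 0.17 to 0.73 FPKM in CK3.

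Lists drawn from the gene descriptions gave the setting of each gene, with the members left out of the lists. At DAF150, 12.6% of all genes tested were higher in T3 and 31.5% were lower (adjusted p of at most 0.05, limma). The median difference was -0.37. At DAF60, 9.51% were higher and 61.9% were lower in T2, with a median of -1.06. At DAF30, 2.07% were higher and 12.4% were lower in T1. The counts and medians of the lists are to be read against these. Of 16 methyltransferase genes tested, 1 was higher and 6 were lower at DAF150 (median -0.75), and 1 was higher and 12 were lower at DAF60 (median -1.49). The methyltransferase with the largest rise at DAF150 was MD09G1089800, an N-acetylserotonin O-methyltransferase gene, from the enzyme class that completes melatonin. It had 32.57, 16.56 and 22.88 FPKM in T3, against 6.46, 7.54 and 10.41 FPKM in CK3, and it passed at DAF30 with 1.23 (SE 0.39, adjusted p = 0.0444) but not at DAF60 with 0.56 (SE 0.39, adjusted p = 0.207, limma).

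Of 18 genes for peptidases and their inhibitors tested, 4 were higher and 9 were lower at DAF150 (median -0.42), and 2 were higher and 10 lower at DAF60 (median -0.90). The aspartic protease gene MD13G1002100 had 17.88, 23.16 and 17.35 FPKM in T3, against 1.18, 3.68 and 1.96 FPKM in CK3. At DAF60 it had 2.94, 6.81 and 2.86 FPKM in T2, against 0.92, 1.63 and 3.85 FPKM in CK2, which did not pass (0.76, SE 0.38, adjusted p = 0.0782, limma). MD01G1149700, a chloroplast EGY2 metalloprotease gene, had 0.95, 1.33 and 1.61 FPKM in T3, against 10.74, 9.42 and 10.91 FPKM in CK3. Among the 3 other C2 domain genes tested, 0 were higher and 1 was lower at DAF150, and 0 were higher and 2 were lower at DAF60. At DAF30 the calls were 1 higher and 0 lower for the methyltransferases, and 0 in either direction for the peptidases and the C2 domain genes. Over all genes, 385 had an unadjusted p under 0.05 at DAF30, and no other tool was run.

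DAF150 is the ripening stage, and SRC2 genes are known for their response to cold, so 2 further lists were counted. Of 25 ethylene and ripening genes tested, 3 were higher and 2 were lower at DAF150 (median -0.09), and at DAF60 0 were higher and 17 were lower (median -1.19). At DAF30, 1 was higher and 5 were lower. The WIN1-like factor gene MD02G1030900, of a family known for cuticle formation in Arabidopsis, had 2.63, 1.82 and 0.94 FPKM in T3, against 0.27, 0.31 and 0.04 FPKM in CK3. In the other direction, MD03G1032300, a homolog of the oxidase that makes ethylene, had 1.39, 0.87 and 1.19 FPKM in T3, against 8.19, 3.68 and 3.69 FPKM in CK3. Of 9 cold, drought and dehydrin genes tested, 2 were higher and 4 were lower at DAF150 (median -0.10), 1 was higher and 3 were lower at DAF60, and 0 were higher and 3 were lower at DAF30. Dehydrins are proteins that accumulate in drying or chilled plant cells. The dehydrin 6 gene MD15G1253900 had 270.02, 181.09 and 181.66 FPKM in T3, against 2693.36, 1332.91 and 844.33 FPKM in CK3, the opposite direction to the SRC2-like gene. The dehydrin DHN3-like MD02G1139700 had 14.68, 23.19 and 22.97 FPKM in T3, against 7.05, 12.46 and 2.59 FPKM in CK3.

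Markers of the tissues in a peel sample were counted at DAF60 and DAF150. Over all genes tested, 9.51% were higher and 61.9% were lower at DAF60, and 12.6% were higher and 31.5% were lower at DAF150. At DAF60, 0 of the 20 green tissue genes tested were higher and 18 were lower in T2 (median -1.85). Of 15 epidermis and cuticle genes, 2 were higher and 11 were lower (median -1.53), of 17 vascular genes 1 was higher and 5 were lower (median -0.15), and all 3 periderm genes were lower (median -2.25). At DAF150 18 of the 20 green tissue genes were lower in T3. The summed FPKM of 21 green tissue genes (chlorophyll, photosystem and ribulose in the description) was between 485 and 867 in T3 and between 4225 and 5752 in CK3, and 1 of the 21 was at 0 in all T3 libraries. The 22 epidermis and cuticle genes summed to between 198 and 266 FPKM in T3 and between 241 and 546 FPKM in CK3, with 2 of 22 at 0 in all T3 libraries and 1 of 22 in all CK3 libraries, so markers of skin were present in both. Of the 15 tested at DAF150, 1 was higher, 2 were lower and 12 did not pass, and the sums overlapped. The 28 vascular and secondary wall genes summed to between 98.7 and 292 FPKM in T3 and between 70.7 and 164 FPKM in CK3, and 11 of the 17 tested were higher and 2 lower in T3. The 3 genes matched by suberin words in their descriptions, used as markers of the corky periderm, summed to between 6.02 and 8.42 FPKM in T3. They summed to between 7.54 and 42.45 FPKM in CK3. These sums overlapped, and 0 of the 3 passed at DAF150. They are not all the suberin genes of the study. The paper gives the feruloyl transferase gene MD08G1058900 as higher in bagged skin. It gives the feruloyl transferase genes MD09G1007600 and MD17G1011500, and suberin genes of the CYP86 family, as lower. The part of the marker differences in the levels of MD02G1019900, MD06G1227300 and MD08G1005500 was not tested.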

How the data were processed

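RNA-seq was measured in 18 libraries of fruit skin, 3 in each of the groups T1, CK1, T2, CK2, T3 and CK3. The authors filtered reads of 100 bp, mapped them with Bowtie2 to GDDH13 v1.1 and deposited FPKM per gene. The deposited log2 ratios, p-values and q-values of T against CK were made by the authors and were not used as results. All 2856 genes of the table had passed the authors' thresholds between all T and all CK (sizes of log2 ratio from 1, q-values up to 0.000992), so the set is selected (610 higher and 2246 lower in T), and adjusted p-values hold within it. The number of fragments behind each value was not recovered, though the paper gives an average sequencing output of the samples. In short genes of low level, whole steps (to 0.006 FPKM) were met by 38.6% to 49.1% of each library's values. The step of a gene was its lowest value above 0 in any library. The check therefore cannot show steps that differ between libraries. Columns of samples that could not be matched numbered 0.

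Values were analysed as log2(FPKM + 1), which understates the change of low genes. Genes that reached 1 FPKM in 3 or more libraries (1399) entered a limma fit, version 3.58.1 (statmod 1.5.0, R 4.3.3) as a model of the 6 groups (12 residual degrees of freedom), with a variance trend, robust moderation and p-values adjusted by Benjamini-Hochberg over all of them. Tests were two-sided, the threshold was an adjusted p of 0.05, and p-values measure the spread between libraries. Alternatives were other pseudocounts (0.1 and 0.5), filters, scalings, sets of libraries and moderation, a replicate block, and leaving out each library.

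The 3 genes and all lists were chosen with earlier results of these data known. Named genes were the members, for each the 5 genes with the highest r over 18 libraries, its neighbours in the order of T3 over CK3 and on the chromosome, relatives that share a family word (for the methyltransferases, those with the highest mean FPKM), and for each list the 2 highest and 2 lowest at DAF150, of which some are given. The words ethylene and LEA were matched as whole words, a choice made after false hits were seen. Gene names are the descriptions in the table, which are best matches. Of the 3 genes, 1 was matched to RefSeq (MD06G1227300, as LOC103438103). A planned search of promoters for motifs was not run, and no sequence was used here. Figures were drawn with matplotlib 3.10.9.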

Additional observations from a re-analysis of the deposited data

Results flagged for a closer look

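The T minus CK difference of MD08G1005500, the prolyl endopeptidase-like gene, changed between DAF30 and DAF60. The difference was 1.37 at DAF60 and -0.39 at DAF30 on the log2(FPKM + 1) scale, a change of 1.76 (SE 0.53, adjusted p = 0.0165, limma). Over the 28 alternatives run, its adjusted p was between 0.00428 and 0.0439. With 3 libraries a group, single libraries far from the others were not tested for.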

How the results depend on the processing

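Of 450 values of the 3 genes under the alternatives, 437 counted as the same. For tested contrasts this meant that direction and side of the threshold were kept. The differences at DAF150 had no test. For them it meant that direction was kept and the value moved by less than the larger SD of the T3 or CK3 libraries. Many of the 450 values could not change direction. Other filters, other moderation, the replicate block and leaving out a library of another group leave a difference as it is. Only its SE and adjusted p can move. For the change between stages, the fit to its own libraries is the fit to those of DAF30 and DAF60. The 437 are therefore not independent checks. MD08G1005500 kept its calls at DAF60, in the change between stages and in T2 against T1 under every alternative run, and without single libraries its difference at DAF60 was between 1.12 and 1.73. That difference was 2.53 with median centring and 2.54 with quantile normalization, and the change between stages was 2.66 and 2.67 under these scalings. For MD06G1227300 at DAF60, the difference of 0.91 passed with the DAF60 libraries alone, with the DAF30 and DAF60 libraries alone (chosen after seeing the data) and without T3 replicate 1, and it was 2.07 with median centring and 2.02 with quantile normalization, which both passed. Without single libraries it was between 0.84 and 0.97. For MD02G1019900 at DAF60, the sign turned with median centring (1.02) and quantile normalization (1.02), and without single libraries the difference was between -0.44 and 0.35. Its change between stages turned with median centring (0.44) and quantile normalization (0.57), and without single libraries was between -0.77 and 0.025. Its difference at DAF150 was 4.996 with a pseudocount of 0.1. These scalings use a table in which most genes are lower in T, and the cause of each shift was not tested.

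The genes called at DAF30 numbered 202, and 97 with a pseudocount of 0.1, 102 with quantile normalization, 84 with the DAF30 libraries alone, 115 with those of DAF30 and DAF60, and 95 to 249 without single libraries. At DAF60 they numbered 999, and 1572 with no filter, 487 with median centring, 430 with quantile normalization, and 856 to 1020 without single libraries. The replicate numbers were not taken to pair the libraries: r of the deviations of same-numbered T and CK libraries was between -0.35 and 0.17, above 0.1 in 5 of 9 pairs and not in all. Across stages of one treatment same-numbered libraries had r between -0.20 and 0.39. With the replicate block the difference of MD08G1005500 at DAF60 was 1.37 (adjusted p = 0.00216, limma), and no call of the 3 genes changed. The number of fragments behind each value is unknown, which limits what the low values of T1, CK1, T2 and CK2 can show.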
